A study of Mus musculus with 4 samples.

Results

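Collagens are the triple-helical proteins of the extracellular matrix, and their genes carry names built on one pattern (Col, a type number, the letter a and a chain number, as in Col1a1). All protein-coding mouse genes with such a symbol in the GENCODE vM1 annotation of genome build mm9 were taken, which gave 43 genes of 22367 protein-coding genes on chromosomes 1 to 19, X and Y. Of these, 11 encode fibrillar chains and 32 encode chains of other types. Membership rests on the symbol alone.

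The measurements were 4 chromatin immunoprecipitation sequencing (ChIP-seq) libraries of E14TG2a.4 mouse embryonic stem (ES) cells, a feeder-independent line grown on gelatin with foetal bovine serum and LIF, a cytokine that keeps ES cells undifferentiated. Both Jarid1b libraries, replicates 1 and 2, were labelled E14 ESCs and were made with an antibody to Jarid1b (Kdm5b), an enzyme that erases methylation of histone H3 lysine 4. One H3K4me3 library came from cells transduced with a scramble control in a lentiviral LKO vector (LKO Scr). The other came from cells transduced with the same kind of vector against Jarid1b (LKO Jarid1b). Both transduced groups were selected with puromycin and both used the rabbit monoclonal antibody C42D8 of the same lot. The labels name no clone and no shRNA sequence, and a ChIP library does not show how much Jarid1b protein was left.

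H3K4me3 (trimethylation of lysine 4 of histone H3) marks nucleosomes around active and poised gene starts, and in ES cells it is usual at promoters rich in CG dinucleotides, also where the gene is silent. Fibrillar collagens (types I, II, III, V, XI, XXIV and XXVII) assemble into the banded fibrils of bone, skin, tendon and cartilage. Type IV chains form the network of basement membranes, the first matrix of the embryo, and the remaining types decorate fibrils, span membranes or form filaments and anchoring structures. The comparison asks how much H3K4me3 and Jarid1b each collagen promoter carried, and whether H3K4me3 differed between the scramble and the Jarid1b shRNA library, in fibrillar genes as against the other types.

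After repeated positions were dropped, the libraries held 4336767 and 1602370 reads for Jarid1b replicates 1 and 2, 5158330 for scramble H3K4me3 and 2635705 for H3K4me3 with Jarid1b shRNA. A promoter is here the 2000 bases centred on the most upstream annotated start of the gene (the gene-level TSS), and a level is the number of distinct read positions in it, or that number scaled to 1000000 reads of the library (RPM). Over 12586 promoters the Jarid1b libraries differed by less than sampling noise (chi-square per degree of freedom 0.90), and 16.8% of the positions of replicate 2 lay at the same base in replicate 1, which was 9.52 times the share at neighbouring offsets. They were therefore counted as 1 sample with 2 sequencing runs. Because the scramble H3K4me3 library was the deeper one, equal read counts in both correspond to a log2 ratio of RPM, Jarid1b shRNA over scramble, of 0.97. Each H3K4me3 condition had 1 library, so whether a second culture would give the same values cannot be told. No difference between the conditions has a replicate check, no p-value is given for one, and the intervals cover counting error only.

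Upstream sequences show how unlike the collagen promoters are. The following are the 200 bases before the gene-level TSS of 5 members, 5′ to 3′ on the strand of the gene in mm9, with every CG dinucleotide in capitals. Col14a1 had the largest H3K4me3 ratio, Col5a1 and Col18a1 the most scramble H3K4me3 of the fibrillar and other types, and Col1a1 and Col3a1 are the major fibrillar chains of bone and skin.
Col14a1, chr15:55139105-55139304, plus strand, 13 CG: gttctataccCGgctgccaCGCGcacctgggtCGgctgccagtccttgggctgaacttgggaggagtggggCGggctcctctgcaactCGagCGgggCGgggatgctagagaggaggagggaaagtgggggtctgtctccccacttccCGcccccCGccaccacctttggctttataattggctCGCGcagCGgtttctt
Col5a1, chr2:27741745-27741944, plus strand, 20 CG: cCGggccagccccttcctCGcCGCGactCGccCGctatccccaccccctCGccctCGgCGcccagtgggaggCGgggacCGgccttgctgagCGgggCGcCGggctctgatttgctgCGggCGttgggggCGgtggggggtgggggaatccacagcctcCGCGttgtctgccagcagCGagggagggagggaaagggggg
Col18a1, chr10:76629294-76629493, minus strand, 9 CG: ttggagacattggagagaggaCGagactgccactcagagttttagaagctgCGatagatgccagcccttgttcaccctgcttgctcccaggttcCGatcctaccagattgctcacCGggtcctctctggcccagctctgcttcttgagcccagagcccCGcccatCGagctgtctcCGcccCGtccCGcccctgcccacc
Col1a1, chr11:94797338-94797537, plus strand, 7 CG: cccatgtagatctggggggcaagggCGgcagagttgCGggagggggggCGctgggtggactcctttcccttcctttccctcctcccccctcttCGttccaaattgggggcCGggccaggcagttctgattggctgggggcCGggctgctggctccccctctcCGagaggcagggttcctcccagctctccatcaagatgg
Col3a1, chr1:45368183-45368382, plus strand, 0 CG: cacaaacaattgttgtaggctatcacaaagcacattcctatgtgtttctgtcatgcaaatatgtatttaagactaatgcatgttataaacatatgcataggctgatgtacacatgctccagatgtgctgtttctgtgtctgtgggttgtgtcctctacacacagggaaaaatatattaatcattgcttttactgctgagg

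Upstream CG counts ranged from 0 to 26 over the 43 genes, with a median of 8 against 7 over all promoters. The median was 7 in the fibrillar genes. The motif TATAAA, searched on both strands of these 200 bases, was found in 4 collagen genes (Col3a1, Col10a1, Col14a1 and Col17a1) and in 10.1% of all promoters. CCAAT, searched likewise, was found in 14 collagen genes (32.6%) and in 30.6% of all promoters, and 5 of the 11 fibrillar genes held it. These are letter matches only. The annotated lincRNA gene 2810430I11Rik starts 627 bases downstream of the Col5a1 TSS on the opposite strand. The whole windows ran from 36.2% GC at Col3a1 to 63.7% at Col4a1.

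Several members share a promoter. Col4a1 and Col4a2, which encode the ubiquitous basement membrane chains, lie head to head on chromosome 8 and their first exons overlap by 22 bases.
Overlap of Col4a1 and Col4a2, chr8:11312805-11312826, plus strand, 4 CG: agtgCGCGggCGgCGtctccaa
Col4a3 and Col4a4, whose chains belong to the basement membranes of kidney and inner ear, start 72 bases apart on chromosome 1.
Bases between the starts of Col4a4 and Col4a3, chr1:82583425-82583495, plus strand, 2 CG: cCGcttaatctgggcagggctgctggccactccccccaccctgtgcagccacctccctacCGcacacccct
Each of these pairs has nearly the same window, so its members are not separate measurements. Col4a5 and Col4a6 on the X chromosome start 1309 bases apart and their windows overlap in part.

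Many collagen promoters carried H3K4me3 in scramble cells, mostly at low levels. By a one-sided Poisson test of each window against its expected count (the genome-wide rate or, where larger, that of the flanking 10 kb on each side), adjusted over 22367 promoters (Benjamini-Hochberg, threshold 0.05), 23 of 43 collagen promoters were enriched in the scramble library, and 60.0% of all promoters were. With Jarid1b shRNA it was 25 of 43, against 59.9% of all promoters. Fibrillar genes accounted for 6 of 11 and then 7 of 11, and the other types for 17 of 32 and then 18 of 32. The shares of the family therefore lay near the background in both libraries. The median collagen promoter held 11 reads in scramble and 10 with Jarid1b shRNA, against 31 and 25 reads over all promoters. In both libraries 22 members were enriched, 3 were so only with Jarid1b shRNA (Col1a2, Col7a1 and Col22a1), 1 only in scramble (Col8a1), and 17 in neither. The members that crossed this threshold held few reads (7 and 10 for Col1a2, 8 and 14 for Col7a1, 8 and 6 for Col22a1, 11 and 5 for Col8a1, scramble first), and crossing a threshold is not by itself a difference between the libraries.

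**Figure D1:**
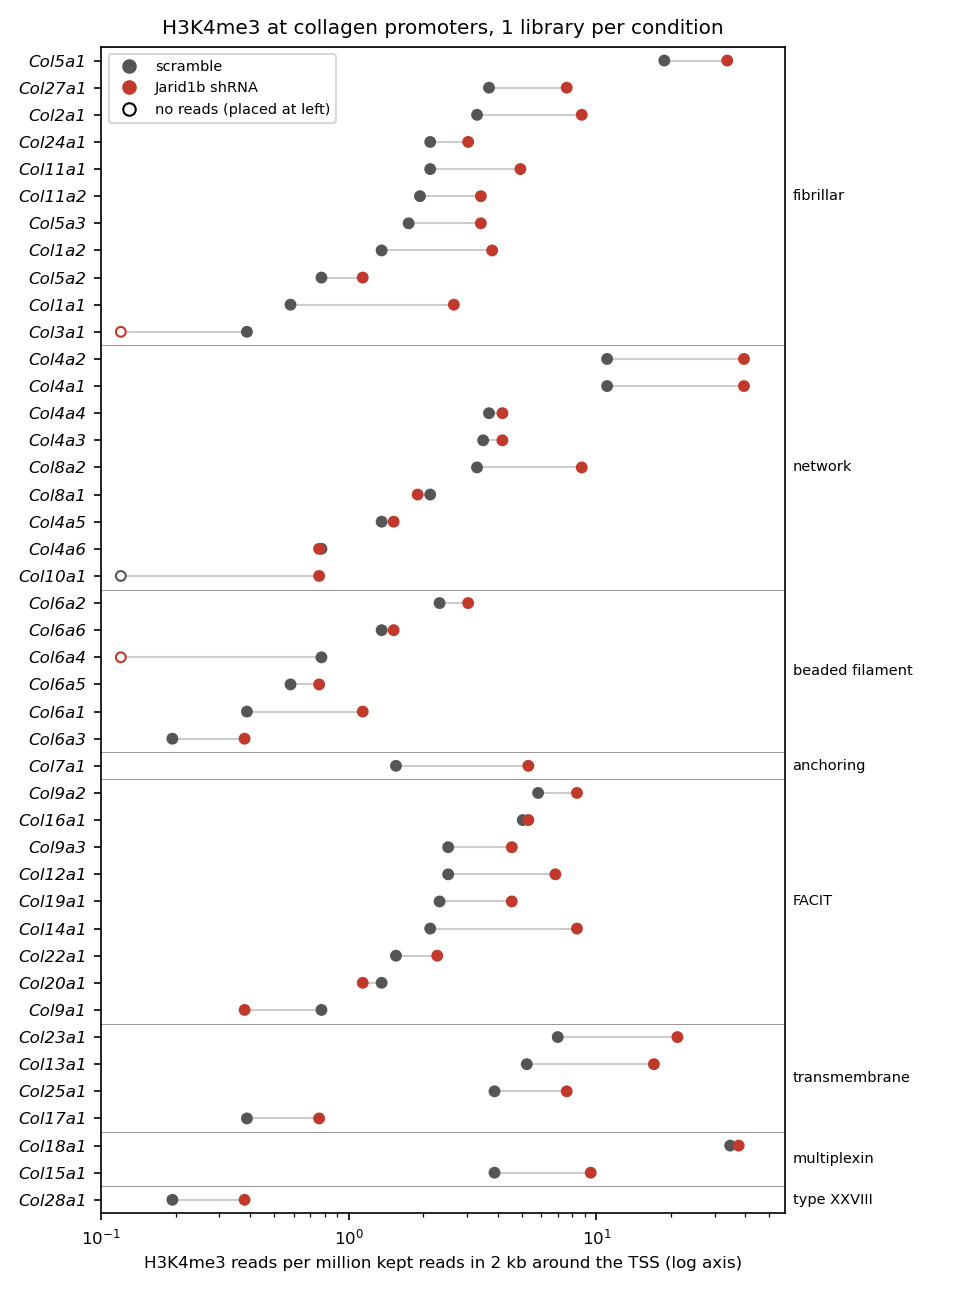
H3K4me3 level of all 43 collagen promoters, in RPM within 1 kb each side of the gene-level TSS (log axis), in the scramble (grey) and Jarid1b shRNA (red) library, ordered by structural class and scramble level. Each point is 1 library with no replicate, open points at the left edge had no reads, and a few members (Col18a1, Col5a1, Col4a1 and Col4a2) stand far above the rest.

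Among the fibrillar genes, Col5a1 stood apart. Col5a1 encodes the chain of type V collagen that nucleates fibrils, and its promoter (TSS at position 27741945 of chromosome 2) held 97 scramble reads and 89 with Jarid1b shRNA, or 18.8 and 33.8 RPM. The next fibrillar promoters held 19 reads or fewer in scramble. Col27a1 (chromosome 4, 62875038), a cartilage chain, held 19 and 20 reads, and Col2a1 (chromosome 15, 97835155), the main chain of cartilage, held 17 and 23. Col11a1, its partner in cartilage fibrils, held 11 and 13. Col24a1, a chain of developing bone, held 11 and 8, and Col5a3 held 9 and 9. These 6 were the fibrillar promoters enriched in both libraries.

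The main chains of bone, skin and tendon were low. At the gene-level TSS of Col1a1 (chromosome 11, 94797538) there were 3 scramble and 7 Jarid1b shRNA reads, and at Col1a2 (chromosome 6, 4454814) there were 7 and 10. Col3a1 (chromosome 1, 45368383), the partner of type I in skin and vessels, held 2 and 0 reads, and Col5a2, its neighbour on the chromosome, held 4 and 3. A count of 3 is the upper limit that a count of 0 allows, so no difference was detectable at Col3a1 at this depth. Col11a2 held 10 and 9 reads inside a region with far more, 0.25 and 0.34 times its local expectation.

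Basement membrane and network genes ranged from 0 to 57 reads in scramble. Col4a1 and Col4a2 shared 57 scramble and 104 Jarid1b shRNA reads, or 11.1 and 39.5 RPM. Col4a3 held 18 and 11 reads and Col4a4 held 19 and 11. On the X chromosome Col4a5 held 7 and 4 and Col4a6 held 4 and 2, neither enriched. Col8a2, a chain of the corneal endothelial membrane, held 17 and 23, and its partner Col8a1 held 11 and 5. Col10a1, the collagen of hypertrophic cartilage, held 0 and 2. In the other filament-forming class, type VI, only Col6a2 was enriched (12 and 8 reads), and the remaining 5 genes held 1 to 7 reads in scramble and 0 to 4 with Jarid1b shRNA.

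The multiplexin Col18a1, the source of endostatin, had the most scramble H3K4me3 of all members, with 179 scramble and 99 Jarid1b shRNA reads (34.7 and 37.6 RPM, the latter below the 39.5 of Col4a1 and Col4a2), and the other multiplexin, Col15a1, held 20 and 25. Transmembrane collagens were also marked. Col23a1 held 36 and 56 reads, Col13a1 27 and 45, and Col25a1, a neuronal collagen, 20 and 20, while Col17a1, the hemidesmosome collagen of skin, held 2 and 2. Of the 9 FACITs (chains that sit on fibril surfaces), Col9a2 held 30 and 22 reads, Col16a1 26 and 14, Col9a3 13 and 12 (not enriched over its surroundings), Col12a1 13 and 18, Col19a1 12 and 12 and Col14a1 11 and 22. Col9a1, Col20a1 and Col22a1 held 4, 7 and 8 scramble reads and 1, 3 and 6 with Jarid1b shRNA. Col7a1, the anchoring fibril of skin, held 8 and 14. Col28a1 held 1 and 1.

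Level followed base composition. Over the 43 members, Spearman's rho between GC content and reads was 0.83 in scramble and 0.88 with Jarid1b shRNA. Corresponding values for the ratio of observed to expected CG dinucleotides were 0.83 and 0.87. These describe 43 genes of the same libraries, some with shared windows, and carry no test. Of the 11 members under 50% GC 1 was enriched in scramble, of the 27 from 50% to 60% 17 were, and of the 5 at 60% or over all 5 were. In the same GC bands 29.2%, 81.2% and 97.3% of all promoters were enriched.

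**Figure D2:**
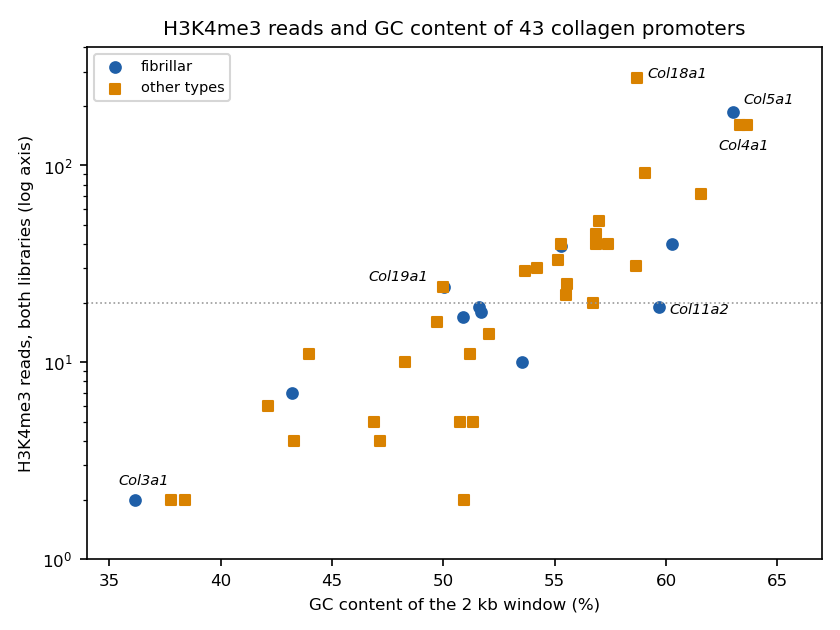
GC content of the 2 kb window against H3K4me3 reads summed over the scramble and Jarid1b shRNA libraries (log axis) for 43 collagen promoters, fibrillar genes as circles and other types as squares. The dotted line is the minimum of 20 reads for a ratio, and reads increase with GC content from Col3a1 at 36.2% to Col4a1 at 63.7%.

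A ratio of RPM, Jarid1b shRNA over scramble, was formed where a promoter was enriched in either library and both together held at least 20 reads. That left 21 collagen promoters, 4 fibrillar (Col2a1, Col5a1, Col11a1 and Col27a1) and 17 of other types. The remaining 22 members, most fibrillar genes among them, had too few reads or no enrichment. Calls of higher or lower needed a ratio of 2-fold or more with an exact 95% Clopper-Pearson interval that excluded no change. By this rule 11 of the 21 were called higher with Jarid1b shRNA and 0 lower, against 24.0% higher and 2.37% lower of the 13273 promoters compared genome-wide. Having no replicates, the calls compare these libraries and not the conditions. The 11 are 10 separate windows, since Col4a1 and Col4a2 share one. Col7a1 entered the comparison only through its enrichment in the Jarid1b shRNA library, where it is high. Of the 20 compared promoters that were enriched in scramble, 10 were called higher, and 23.2% of all promoters compared under that filter were.

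Col14a1, a FACIT of tendon and skin, had the largest ratio. Its promoter (chromosome 15, TSS 55139305) held 2.13 RPM in scramble and 8.35 with Jarid1b shRNA, a log2 ratio of 1.97 (95% interval 0.86 to 3.16). Col4a1 and Col4a2 followed with 1.84 (1.36 to 2.33), the narrowest interval of the promoters called higher because of their depth. Col7a1 gave 1.78 (0.42 to 3.24). The transmembrane genes Col13a1 and Col23a1 gave 1.71 (0.99 to 2.45) and 1.61 (0.98 to 2.25). Col12a1, a FACIT of dense connective tissue, gave 1.44 (0.33 to 2.59). The ratios of Col8a2 and Col2a1, which had the same counts, were both 1.40 (0.44 to 2.40). Col15a1 gave 1.29 (0.38 to 2.22) and Col27a1 1.04 (0.06 to 2.03). The intervals of these 11 promoters overlap, so the order within them is not resolved by counting.

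Ratios were smaller at both of the members with the most scramble reads. Col18a1 had a log2 ratio of 0.11 (-0.25 to 0.48), and its interval excludes a 2-fold difference in either direction. Col5a1 had a ratio of 0.84 (0.41 to 1.27), above no change by counting and short of 2-fold. Col16a1 (0.08), Col4a4 (0.18), Col4a3 (0.26), Col6a2 (0.38), Col9a2 (0.52), Col19a1 and Col25a1 (both 0.97) and Col11a1 (1.21) had intervals that included 0. All of these intervals, and that of Col5a1, also included 2-fold (upper limits from 1.07 at Col16a1 to 2.51 at Col11a1). Of the uncalled promoters only Col18a1 had an interval that excluded it.

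**Figure D3:**
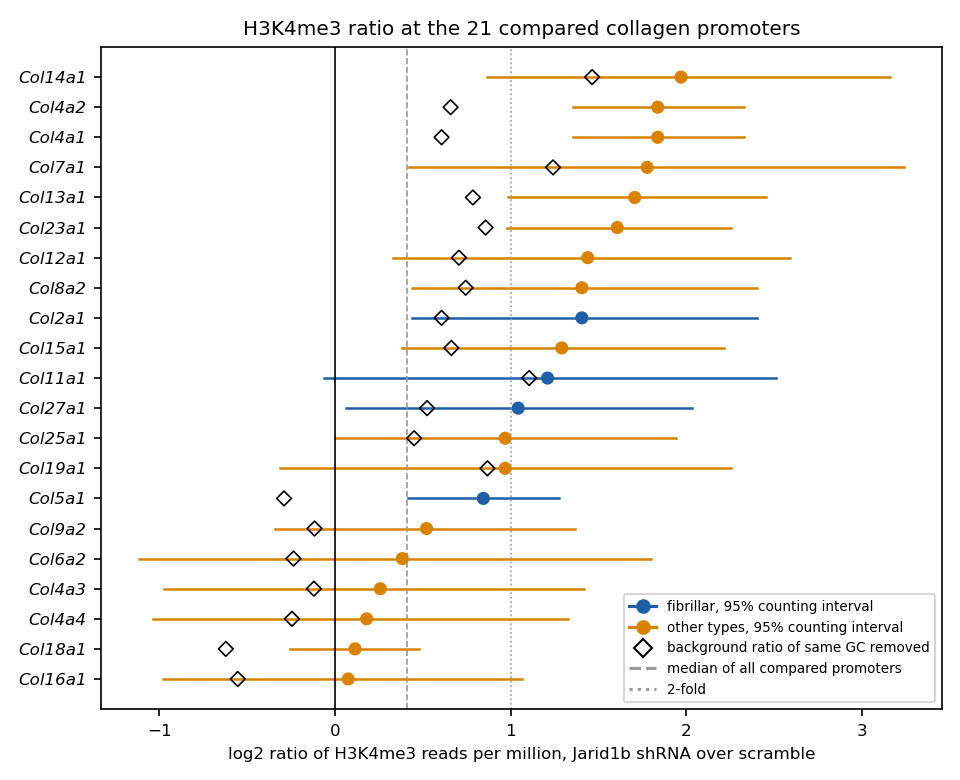
The log2 ratio of H3K4me3 RPM, Jarid1b shRNA over scramble, at the 21 compared collagen promoters with exact 95% counting intervals (fibrillar blue, other types orange) and, as open diamonds, the ratio after the ratio of background bins of the same GC content was removed. All 21 filled points lie right of 0, the dashed line is the median of all compared promoters (0.41), and 7 diamonds lie left of 0.

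As scaled to library size, all 21 ratios were above 0, as were 9224 of 13273 genome-wide, but scaling to the median promoter ratio turned 5 below 0 (Col16a1, Col18a1, Col4a3, Col4a4 and Col6a2) and correction for GC content turned these and Col5a1 and Col9a2 below 0. The collagen median was 1.21 (range 0.08 to 1.97), against 0.41 for all compared promoters, so the typical promoter was itself shifted and collagen values stand relative to that shift. With the median promoter ratio set to 0 the collagen median was 0.80. On that scale 6 of the 21 were called higher (Col4a1, Col4a2, Col7a1, Col13a1, Col14a1 and Col23a1), of which Col4a1 and Col4a2 share a window. Of the 13273 promoters compared genome-wide 1592 were called higher on the same scale.

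GC content moved with the ratio across the whole genome. Background bins of 1 kb were taken away from the gene-level starts of protein-coding genes and were not themselves enriched for H3K4me3. In them the log2 ratio between the libraries went from -0.66 at 30.6% GC to 1.39 at 64.7%. Over all 13273 compared promoters Spearman's rho between GC content and ratio was 0.63, and over the 21 collagen promoters it was 0.36. The 11 collagen promoters called higher lay between 55.2% and 63.7% GC. From 50% to 60% GC 7 of 16 collagen promoters were called higher, and of all promoters in that band 20.4% were. At 60% or over 4 of 5 were, and of all promoters 61.1%. When the ratio of background bins of the same GC content was removed, 1 collagen promoter, Col14a1 with 1.46 (0.36 to 2.65), remained 2-fold higher with an interval above 0, against 6.25% of all promoters. Col4a1 then had 0.61 (0.13 to 1.10), Col4a2 0.66 (0.18 to 1.15), Col13a1 0.79 (0.07 to 1.53) and Col23a1 0.86 (0.23 to 1.5), above 0 by counting but under 2-fold. The collagen median was then 0.61, and that of all compared promoters -0.07. Col18a1 had -0.62 (-0.99 to -0.26) and Col5a1 -0.29 (-0.72 to 0.14). The part of GC content in the higher calls beyond this was not tested.

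Fibrillar and other types did not differ measurably. Fibrillar promoters were called higher in 2 of 4 cases (Col2a1 and Col27a1) and the other types in 9 of 17. The median log2 ratio was 1.13 over the 4 fibrillar promoters (range 0.84 to 1.40) and 1.29 over the 17 others (range 0.08 to 1.97). Summed over all members, fibrillar reads were 190 in scramble and 191 with Jarid1b shRNA, a log2 ratio of 0.98 (0.68 to 1.27), and those of the other types, with each head-to-head pair counted once, were 556 and 539, a ratio of 0.92 (0.75 to 1.10). The difference, other types minus fibrillar, was -0.05 (-0.40 to 0.29), and it was 0.04 (-0.30 to 0.38) with every member counted, so its direction is not settled. Col5a1 and Col18a1 dominate these sums. Without them the ratios were 1.10 for fibrillar genes (93 and 102 reads) and 1.19 for the others with pairs counted once (377 and 440), a difference of 0.09 (-0.38 to 0.56). By class, the summed ratio was 1.5 (1.09 to 1.92) in the transmembrane genes and 1.41 (1.04 to 1.78) in the network genes with pairs counted once. It was 0.80 (0.41 to 1.18) in the FACITs, 0.29 (-0.05 to 0.62) in the multiplexins and 0.28 (-0.65 to 1.18) in the type VI genes. Col18a1 held 179 of the 199 multiplexin scramble reads, and the other multiplexin, Col15a1, had a ratio of 1.29. The Col4a1 window held 104 of the 149 Jarid1b shRNA reads of the network genes. These sums were not corrected for GC content.

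Profiles at 500-base resolution showed where the reads lay. At Col4a1, scramble reads were 9, 12, 22 and 14 in the bins from 1 kb upstream to 1 kb downstream, and 7, 41, 46 and 10 with Jarid1b shRNA. The difference was thus in the central bins, over the shared promoter. At Col5a1 the first 500 bases downstream held 58 and 65 reads. At Col18a1 the mark extended into the gene in scramble. There, the bin from 1000 to 1500 bases downstream, outside the window used for the ratio, held 43 scramble reads and 7 with Jarid1b shRNA. That bin was singled out after its values were seen. Col14a1 held 6 and 12 reads in the first 500 bases downstream.

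**Figure D4:**
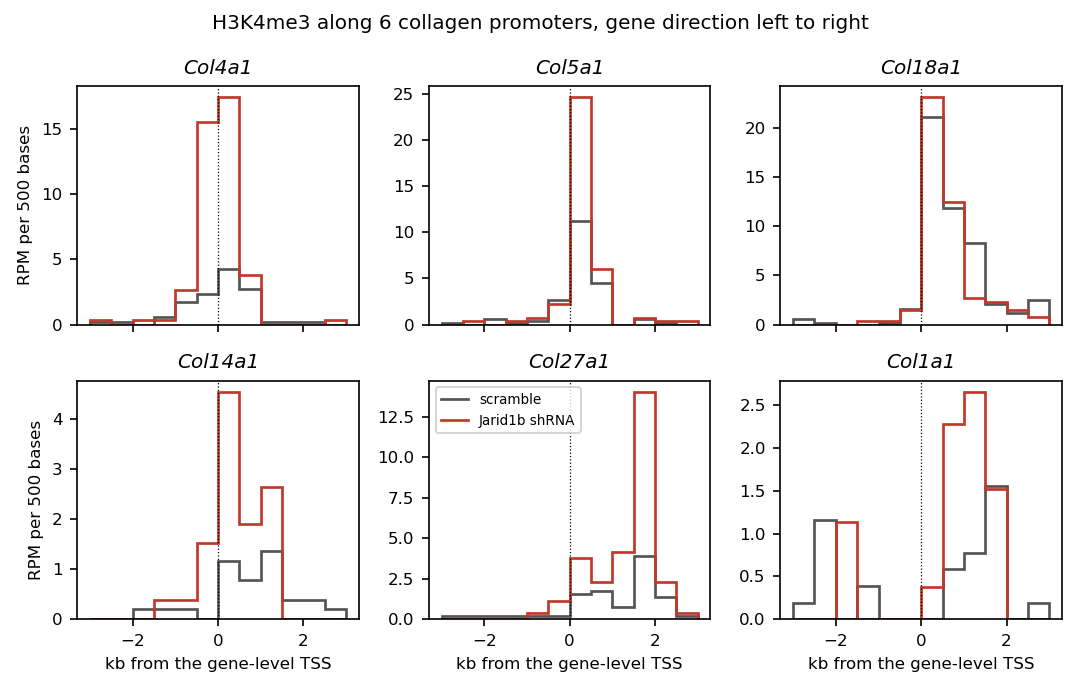
H3K4me3 RPM per 500 bases from 3 kb upstream to 3 kb downstream of the gene-level TSS of 6 collagen genes, scramble grey and Jarid1b shRNA red, each panel with its own vertical scale. At Col27a1 and Col1a1 the highest bin lies 1 kb or more downstream of the gene-level TSS, and at Col4a1 the libraries differ most in the bins next to the TSS.

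For some genes the marked start was not the most upstream one. Collagen genes have 182 distinct annotated starts, 103 of them over 1 kb downstream of the gene-level TSS, and 13 of those, in 9 genes, were enriched in at least 1 H3K4me3 library. Of all such downstream starts of protein-coding genes 25.6% were. Col27a1 was clearest. Around a protein-coding start 1431 bases downstream there were 42 scramble and 62 Jarid1b shRNA reads, a log2 ratio of 1.53 (0.94 to 2.13), more than the 19 and 20 reads at the gene-level TSS, and the windows overlap in part. Col1a1 was enriched only around a transcript start 1462 bases downstream, with 15 and 17 reads (ratio 1.15, 0.06 to 2.25). Col6a4 was enriched only around a start 24374 bases downstream and only in scramble, with 14 and 3 reads. Col8a2 had a second marked protein-coding start 13737 bases downstream, with 13 and 20 reads. Col18a1 encodes shorter proteins from starts 52602 to 52872 bases downstream, where there were 7 or 8 scramble reads and 11 with Jarid1b shRNA. Of its starts, the one 77120 bases downstream held 10 and 3. The other enriched starts, in Col2a1, Col9a2, Col13a1 and Col16a1, held 2 to 14 scramble and 7 to 16 Jarid1b shRNA reads.

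Jarid1b signal at collagen promoters was weak. Enrichment in both Jarid1b libraries was found at 5 of 43, and at 7.96% of all promoters. Col14a1 held 24 reads in replicate 1 and 16 in replicate 2, 4.24-fold (2.71 to 6.30) and 9.0-fold (5.14 to 14.6) over the expected count, and was the highest of the family in replicate 2. Col15a1 held 17 and 7 reads (4.37- and 5.59-fold), Col27a1 19 and 9 (3.11- and 5.40-fold), Col19a1 13 and 7 (3.83- and 5.59-fold) and Col13a1 15 and 8 (2.18- and 3.13-fold). The order of these folds was not resolved, as the intervals at 7 to 9 reads were wide (2.25 to 11.5 at Col15a1 in replicate 2). Fibrillar genes other than Col27a1 held 1 to 17 reads in replicate 1 and 1 to 7 in replicate 2. Col4a1 and Col4a2 shared 27 and 7 reads, the most of the family in replicate 1, and Col18a1 held 21 and 4. Col5a1 held 14 and 4, and Col4a3 and Col4a4 shared 5 and 0. Expected counts taken from background bins of the same GC content left 1 collagen promoter, Col14a1 (2.82- and 4.79-fold), and 106 promoters in all. Replicate 2 on its own called 6 of 43 collagen promoters and 2412 of 22367 promoters in all. Replicate 1 on its own called 13 of 43 and 5957 in all. Of the 5 promoters called in both, all but Col19a1 were among the 11 called higher in H3K4me3 with Jarid1b shRNA. Genome-wide, 49.3% of the compared promoters enriched for Jarid1b were called higher. Both calls were more frequent at high GC content. Under 50% GC, 0.69% of all promoters were enriched for Jarid1b and 2.88% of those compared were called higher. At 60% or over these shares were 32.9% and 61.1%. Col14a1 alone among the collagen promoters kept both calls against background bins of the same GC content. The part of GC content in this overlap was not tested. An IgG library is not analysed here, so every expected count came from the Jarid1b library itself (genome-wide rate, flanking bases or background bins).

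**Figure D5:**
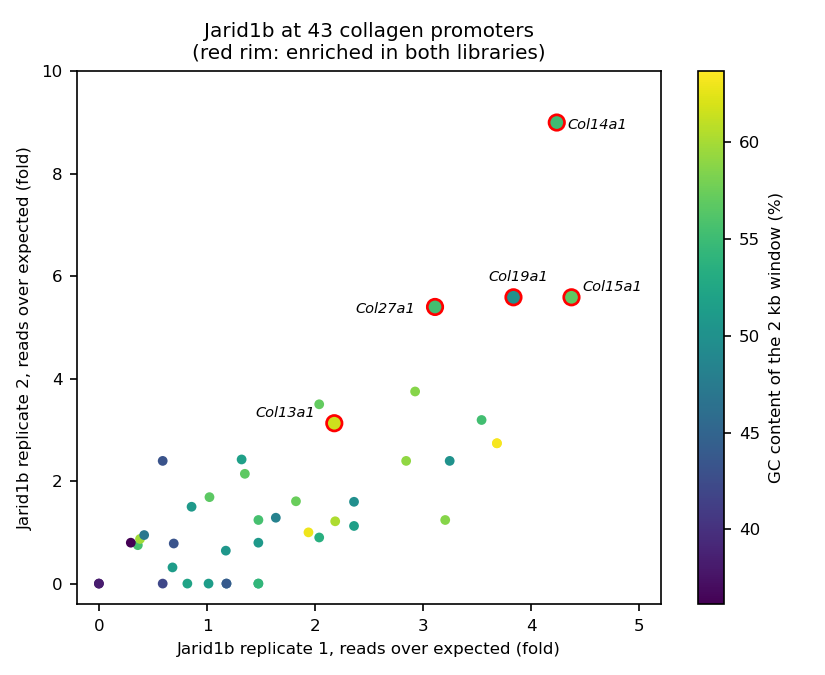
Jarid1b reads over the expected count (fold) at 43 collagen promoters, replicate 1 on the horizontal and replicate 2 on the vertical axis, coloured by GC content, with the 5 promoters enriched in both libraries rimmed in red. Col14a1 lies apart at 4.24- and 9.0-fold, and the libraries count as 1 sample.

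Genes that act on collagen were described from fixed lists, by counts and medians beside the 24.0% of all promoters called higher and the median of 0.41. Among 17 genes of collagen processing in the endoplasmic reticulum, all were compared, 6 were called higher and 0 lower, with a median log2 ratio of 0.60. The prolyl 3-hydroxylase family genes Leprel2 (46 and 78 reads, ratio 1.73) and Leprel1 (38 and 62, 1.67) were highest. P4hb, the beta subunit of prolyl 4-hydroxylase (306 and 141, ratio -0.15), and the lysyl hydroxylase Plod3 (203 and 94, -0.14) were lowest. Of 13 genes for maturation outside the cell, 7 were called higher and 0 lower, with a median of 1.15. Bmp1, the procollagen C-proteinase, held 19 and 58 reads (2.58, 1.81 to 3.41), and Adamts3, an N-proteinase, 18 and 53 (2.53, 1.73 to 3.39). Pcolce (-0.17) and Pcolce2 (0.25), enhancers of the C-proteinase, were lowest.

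Of 10 collagen receptors 4 were compared, and 2 were called higher, the integrin subunit Itgb1 (91 and 118 reads, 1.34) and the endocytic receptor Mrc2 (46 and 53, 1.17). The integrin chains Itga2 (0.72) and Itga1 (-0.42) were not. Of 15 laminins and other partners of type IV collagen 13 were compared and 1 was called higher, Agrn (145 and 157 reads, 1.08), with a median of 0.56. Lama1 had a ratio of 0.95 (0.53 to 1.38), Lamb2 of -0.16 and Nid2 of -0.36. The 1.84 of Col4a1 and Col4a2 lay above all 13, each of which is a different promoter of the same libraries. Of 7 collagen-binding matrix proteins only Sparc could be compared (-0.37), and of 6 collagenases and gelatinases Mmp2 (0.68) and Mmp14 (0.35), none of them called. After removal of the background ratio at the same GC content, 2 of 17 processing genes and 3 of 13 maturation genes were called higher. In the other 4 lists named here 0 genes were, and of all compared promoters 6.25% were.

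Marker genes of the cells moved between the libraries as well. Of 8 ES cell markers 7 were enriched in scramble (Esrrb, the exception, held 3 reads and 0 with Jarid1b shRNA at its gene-level TSS). Of those 7, 4 were called lower with Jarid1b shRNA, namely Nanog (239 and 52 reads, -1.23), Zfp42 (-1.43), Tdgf1 (-1.17) and Dppa5a (-1.12). The number called higher was 0, and of all promoters 2.37% were called lower and 24.0% higher. Among the uncalled markers, Klf4 (161 and 133 reads, 0.69, 0.35 to 1.03) and Sox2 (0.23) had ratios above 0, and Pou5f1 (-0.70) below 0. Removal of the background ratio at the same GC content turned Klf4 (-0.68) and Sox2 (-0.89) below 0. The summed scramble reads of the ES cell list were 1507 and those with Jarid1b shRNA 556, a log2 ratio of RPM of -0.47 (-0.61 to -0.33). Of the matched markers of other cells, 3 of 6 for primitive and parietal endoderm and 3 of 8 for fibroblasts were compared. So were 3 of 4 for neural progenitors and 3 of 4 for cartilage. Of those compared, 3, 2, 3 and 2 in that order were called higher. Over the whole lists the summed reads were 71 and 84, 135 and 177, 80 and 108, and 84 and 119, scramble first. Their log2 ratios of RPM were 1.21, 1.36, 1.40 and 1.47. With the background ratio at the same GC content removed, these counts of higher calls were 1, 0, 0 and 1. Of all compared promoters 6.25% were then called higher. Foxa2, of the endoderm list, entered only through its enrichment in the Jarid1b shRNA library. Gata4 (3 and 1 reads), Postn (4 and 2) and Acta2 (1 and 1) were at or near the background. The part of these shifts in the collagen ratios was not tested. Kdm5b itself held 153 and 155 reads, a ratio of 0.99 (0.66 to 1.32), and was not called higher. With the background ratio at the same GC content removed its ratio was 0.24.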

How the data were processed

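Aligned reads of the 4 ChIP-seq libraries were used as deposited, 1 row per read. Per the labels' protocols, tags were mapped to mm9 with Bowtie (version not given in the sources used here). Peak calling with MACS and normalization to IgG are also named there, but the deposited rows precede them. The deposited score column was 0 in every row and was not used. Read lengths were 34 and 26 bases for Jarid1b replicates 1 and 2, 34 for scramble H3K4me3 and 35 for H3K4me3 with Jarid1b shRNA.

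Reads with the same chromosome, strand and 5′ position were kept once, as the labels' protocols describe, which removed 15.3%, 7.69%, 31.5% and 7.56% of the rows in that order. The 5′ ends were moved 75 bases towards the fragment centre and counted within 1 kb of the gene-level TSS. The expected count of a window was the genome-wide rate or, if larger, that of the flanking 10 kb each side. Enrichment was a one-sided Poisson test, adjusted over all promoters (Benjamini-Hochberg). Ratios were of RPM, with exact Clopper-Pearson intervals at 95%. The interval of the difference between fibrillar and other types was the exact conditional interval of the odds ratio. PCR and sampling of cells add error that no interval here covers. Background bins of 1 kb lay over 5 kb from any start and were put in 14 GC classes.

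Members named in full were all fibrillar genes, those called higher or lower or enriched for Jarid1b and the head-to-head pairs. From the other members the 3 highest and 3 lowest scramble levels per class were named, and from each list the 2 highest and 2 lowest ratios. The members, gene lists and rules were chosen with earlier results of these data known. From the processing list 7 symbols, mostly synonyms, and from the endoderm and neural marker lists 1 each were not matched. Alternatives concerned the window, read shift, repeats, threshold, background, scaling, GC content and minimum reads. The calculations were tested on simulated counts and used Python 3.11.15, numpy 2.4.6, scipy 1.17.1, pandas 2.3.3 and matplotlib 3.10.9.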

Additional observations from a re-analysis of the deposited data

How the results depend on the processing

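Counts of H3K4me3-enriched collagen promoters stayed within 1.5 times of the reported values in every alternative run for them, and 0 collagen promoters were called lower in each alternative run for that count (the adjusted p threshold and the genome rate were not among these). The count called higher, 11 as reported, was 6 with scaling to the median ratio, 4 with at least 50 reads (7 promoters compared), 1 with the GC trend over promoters removed and 1 with the ratio of background bins of the same GC content removed, an alternative added after seeing the data. The fibrillar median ratio was 0.72, 0.54 and 0.57 with median scaling, the trend over promoters and the background bins respectively. In the same order the collagen median, 1.21 as reported, was 0.80, 0.62 and 0.61, and that of the other types, 1.29 as reported, was 0.88, 0.63 and 0.66. The count enriched for Jarid1b in both libraries, 5 as reported, was 1 at an adjusted p threshold of 0.001, 13 with the genome rate only and 1 with expected reads at the same GC content. Of all 22367 promoters 1781 were so enriched as reported, and 316, 5539 and 106 in these alternatives, in that order. Leaving out a Jarid1b replicate gave 6 to 13 collagen promoters and 2412 to 5957 of all promoters. Of all calls genome-wide 91.0% were higher as reported, 57.2% with median scaling, 97.3% with scaling to background bins, and 70.7% and 59.2% with the corrections for GC content over promoters and over background bins. The cause of these differences was not tested. No paired analysis was possible because each H3K4me3 condition has 1 library and the Jarid1b replicates have no partner library. Depth sets the width of the intervals, which at 22 reads (Col7a1) ran from 0.42 to 3.24.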
